A study of Oryza sativa with 18 samples.

Results

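The comparison described here set the brown planthopper-resistant rice line NIL-BPH9 against the susceptible variety 9311 after 6 h of infestation. Its members were the 3 arrays of NIL-BPH9 and the 3 arrays of 9311 whose sample titles give 6 h, out of 18 arrays in the series. Both lines were also sampled at 0 h, without insects, and at 3 h of infestation, with 3 biological replicates in each of the 6 groups. All plants were 3 weeks old, at the four-leaf stage, were grown in one kind of growth chamber, and gave leaf sheath RNA. Apart from the resistance status in the labels, NIL-BPH9 and 9311 carried no stated transgene or treatment other than the insects. NIL stands for near-isogenic line, a line bred to carry a chosen stretch of donor genome in another variety's background, and the labels give neither the donor nor the limits of that stretch. No uninfested plants of 3 h or 6 h were analysed here, so within a line time and infestation cannot be told apart. At a given time the lines differed in genome as well as in resistance, so a lower signal through a mismatch under a probe and a lower transcript level cannot be told apart on these arrays. In whole sheath, fewer cells of a type and less RNA per cell cannot be told apart either.

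The brown planthopper feeds by putting its stylets into the phloem of the rice leaf sheath. BPH9 is a resistance gene that encodes a nucleotide-binding leucine-rich repeat protein, the class of intracellular receptor by which plants recognise attackers. Wounding and attack set off jasmonate signalling, in which the hormone removes JAZ repressor proteins and the JAZ genes are themselves switched on as part of the feedback. Rice also makes volatile terpenes such as linalool and antimicrobial diterpenes, the momilactones and phytocassanes, under attack.

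The values were log2 signals of Affymetrix probe sets, and differences are NIL-BPH9 minus 9311 on the log2 scale, so that 1 means 2-fold, with the standard error (SE) of the fit. Of 57194 rice probe sets, 33094 lay at or above the array median on at least 3 of the 18 arrays and were tested. A difference was called when its adjusted p in limma was under 0.05. Each gene was represented by its brightest probe set among those tested, which gave 16053 genes, 2262 of them with a name other than a locus number. The array medians at 6 h lay between 5.18 and 5.41. Replicate arrays at 6 h correlated at 0.958 to 0.962 across probe sets, and arrays of different lines at 0.946 to 0.950. The 3′ to 5′ signal ratio of 5 rice control transcripts was 1.70 ± 0.03 (SD, n = 3) on the log2 scale in NIL-BPH9 and 1.77 ± 0.09 (SD, n = 3) in 9311, with p = 0.2 in an exact two-sided permutation test whose smallest p is 0.1. The polyadenylated spike-in probe sets, 36 in number, were 0.44 higher in NIL-BPH9, from 10.70 to 10.78 against 10.21 to 10.46 in 9311 (exact permutation p = 0.1, the smallest possible), and their part in the results was not tested. Of the green tissue markers, both genes named LHCP (chlorophyll-binding proteins) and RBCS (the small Rubisco subunit) were bright in both lines, with group means at 6 h from 11.46 to 15.39. Of the 2 root and 2 pollen markers with a probe set, 0 passed the filter. Of 5 seed storage genes tested, limma called 0 at 6 h (0 at an unadjusted p under 0.05), but GLB stood at 11.66 and 11.54 in the 2 lines.

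The NIL-BPH9 arrays of 0 h stood apart from those of 3 h and 6 h, which matters for every comparison with 0 h. On the first principal component, with 15.4% of the variance, the 9311 arrays lay from -51.79 to -29.70, the NIL-BPH9 arrays of 0 h from 7.87 to 16.17, and those of 3 h and 6 h from 44.24 to 59.06. The 0 h group of 9311 was itself spread on the second component, with 9.44% of the variance. Its arrays lay at 17.89, 13.04 and -33.69, where the 9311 arrays of 6 h lay from -34.17 to -27.74. The locus LOC9271323 on chromosome 8 shows the step most plainly. It read 9.09, 9.06 and 9.59 on the NIL-BPH9 arrays of 0 h and 9.82, 9.49 and 8.68 on those of 9311, but 0, 0 and 1.71 against 9.34, 9.59 and 9.05 at 6 h. Its signal in NIL-BPH9 was thus at the level of 9311 before infestation and near 0 at 6 h. Whether the 0 h plants of NIL-BPH9 carried the same chromosome 8 as the later ones was not tested. Tests against 0 h are given below with this in view. Without the genes of chromosome 8 they called 1456 of 14989 genes (9.71%) in place of 1596 of 16053 (9.94%). That count cannot decide the question, since LOC4335583 on chromosome 4 also stepped after 0 h. Probe sets without a gene, moreover, have no chromosome here.

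At 6 h, 2505 of 16053 genes differed between the lines (15.6%), 1256 higher in NIL-BPH9 (7.82%) and 1249 lower (7.78%). Most of these differences were small, with a median size of 0.41 among called genes. Large differences were mostly upward: 183 called genes were at least 2-fold higher (1.14%) and 69 at least 2-fold lower (0.43%). Over all tested genes the median difference was -0.03. On probe sets the counts were 1903 higher and 1833 lower of 33094 (11.3% called in all).

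Most of the JAZ family was higher in NIL-BPH9. Of 12 JAZ repressor genes measured, 8 were higher at 6 h and 0 were lower, with a median difference of 0.72, where 7.82% of all tested genes were higher, 7.78% lower and the median was -0.03. TIFY11E read 11.42, 11.34 and 11.32 in NIL-BPH9 and 9.63, 9.71 and 9.67 in 9311, a difference of 1.69 ± 0.11 (adjusted p = 6.14e-09). The lines were separated by far more than the replicates were spread. TIFY11A read 10.02, 10.01 and 10.07 against 8.79, 8.25 and 8.42, a difference of 1.54 ± 0.20 (adjusted p = 2.03e-05). TIFY11C read 10.86, 11.08 and 10.97 against 9.76, 9.61 and 9.62, a difference of 1.31 ± 0.13 (adjusted p = 7.08e-07). In all 3 genes every NIL-BPH9 array lay above every 9311 array, as 1 line did over the other in 39.0% of all tested genes. TIFY11B (1.17 ± 0.09), TIFY11D (0.76 ± 0.08), TIFY10C (0.71 ± 0.10), TIFY10A (0.27 ± 0.07) and TIFY10B (0.18 ± 0.05) made up the other called members. TIFY3, TIFY6A, TIFY6B and TIFY9 were not called, and TIFY9 was at 0.73 with an SE of 0.68. TIFY11A, TIFY11B and TIFY11C are neighbours on chromosome 3, and whether their probe sets also bind each other's transcripts was not tested.

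The JAZ difference was larger at 6 h than before infestation for 4 members. TIFY11A differed by only 0.10 at 0 h, so that its line difference grew by 1.45 ± 0.28 (adjusted p = 0.00381). The same test gave 1.35 ± 0.18 for TIFY11C (adjusted p = 0.000155), 1.14 ± 0.16 for TIFY11E (adjusted p = 0.000299) and 0.81 ± 0.13 for TIFY11B (adjusted p = 0.00114). In 9311 the mean level of TIFY11E was 8.25 at 0 h, 8.61 at 3 h and 9.67 at 6 h, and in NIL-BPH9 it was 8.79, 10.13 and 11.36. Both lines thus stood higher at 6 h than at 0 h, NIL-BPH9 more so. Over all genes, 5.72% had a line difference that was called as more positive at 6 h than at 0 h.

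Of 15 genes of enzyme families with members in jasmonate synthesis or conjugation, 3 were higher and 0 lower, with a median of 0.15. Of all tested genes 7.82% were higher. Members were matched by name, so some may not act in that pathway. The allene oxide synthase AOS2 read 8.82, 9.18 and 8.29 in NIL-BPH9 and 7.82, 7.94 and 7.66 in 9311, a difference of 0.95 ± 0.20 (adjusted p = 0.00315). AOS1, the second allene oxide synthase, was higher by 0.50 ± 0.07, and OPR4, of the oxophytodienoate reductase family, by 0.72 ± 0.18. OPR4 was no longer called without the first 9311 array (adjusted p = 0.0521). In the test against 0 h, limma called 0 members of this list, and 2 passed at an unadjusted p under 0.05. LOX8, a lipoxygenase, was at 1.04 ± 0.49 and not called.

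Among terpene genes, LIS and part of the diterpene pathway were far higher in NIL-BPH9. LIS, which encodes a linalool synthase, read 9.61, 9.78 and 9.58 in NIL-BPH9 and 7.76, 7.63 and 7.09 in 9311, a difference of 2.16 ± 0.23 (adjusted p = 2.21e-06), or 4.47-fold. Before infestation the order was the other way, with means of 5.82 and 6.44, not called. The line difference of LIS therefore moved by 2.78 ± 0.32 between 0 h and 6 h (adjusted p = 3.97e-05), the most positive among the named genes chosen by that test. At 3 h the means were 10.11 and 7.57. Linalool is a floral-scented monoterpene alcohol that rice plants give off under insect attack.

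Of 14 genes of diterpene phytoalexin synthesis, 4 were higher and 1 lower at 6 h, with a median of 0.56, against shares of 7.82% and 7.78% over all tested genes. CYP71Z7, a cytochrome P450 that oxidises diterpene precursors, read 8.91, 8.25 and 8.86 against 6.86, 6.19 and 6.74 in 9311, a difference of 2.08 ± 0.21 (adjusted p = 1.21e-06). CPS2, the copalyl diphosphate synthase of the phytoalexin branch, read 7.06, 7.06 and 6.87 against 5.69, 5.28 and 4.65, a difference of 1.80 ± 0.25 (adjusted p = 6.75e-05), with the 9311 mean under the array median. CYP99A2, a P450 of the momilactone cluster, read 8.34, 8.24 and 8.42 against 6.83, 6.24 and 6.82, a difference of 1.70 ± 0.20 (adjusted p = 7.71e-06). Its neighbour CYP99A3 was higher by 1.21 ± 0.22. The replicates of the lines did not overlap for any of these 4, as for 39.0% of all tested genes. Non-overlap was also a condition for genes chosen by the largest differences. KS4, a diterpene synthase of the same cluster, was at 2.55 ± 0.96 with a 9311 mean of 2.77, under the array median, and was not called (adjusted p = 0.101). The 1 lower gene, CYP701A6, is a kaurene oxidase of gibberellin synthesis, and its difference of -0.24 ± 0.08 (adjusted p = 0.0474) lost its call in 11 of 14 alternative settings (adjusted p up to 0.215). 

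CYP71Z7, CPS2 and CYP99A2 also had line differences that were larger at 6 h than at 0 h, by 1.26 ± 0.30, 1.23 ± 0.36 and 1.03 ± 0.28 (adjusted p = 0.0151, 0.0451 and 0.0338). That call ended for CPS2 in 13 of 20 alternative settings (adjusted p up to 0.119) and for CYP99A2 in 11 (up to 0.0926). For CYP71Z7 the mean in NIL-BPH9 was 8.59 at 0 h and 8.68 at 6 h, and in 9311 it was 7.77 and 6.60. Between 0 h and 6 h the gap thus widened mainly through a lower 9311 mean, unlike LIS. At 3 h, however, CYP71Z7 read 9.30, 9.51 and 9.61 in NIL-BPH9, above its 0 h mean, and 6.50, 6.94 and 7.08 in 9311. DXPS, a deoxyxylulose phosphate synthase at the entry to plastid terpenoid synthesis, was level at 0 h (-0.04) and higher by 1.24 ± 0.18 at 6 h, and its change of 1.28 ± 0.26 was called (adjusted p = 0.00569).

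Several transcription factors of the WRKY and DREB families were higher in NIL-BPH9, and 0 of the measured members were called lower. Of 6 WRKY genes that could be matched, 3 were higher, with a median of 0.83 (7.82% of all tested genes were higher). WRKY76 read 10.76, 10.88 and 10.87 against 9.08, 8.92 and 8.90 in 9311, a difference of 1.87 ± 0.11 (adjusted p = 3.89e-10). WRKY62, its neighbour on chromosome 9, read 8.14, 8.15 and 8.10 against 6.73, 6.14 and 6.83, a difference of 1.56 ± 0.22 (adjusted p = 5.95e-05). Overexpression of WRKY76 or of WRKY62 has been reported to lower disease resistance in rice. WRKY71 was higher by 1.36 ± 0.18. WRKY76 and WRKY71 grew apart from 0 h to 6 h by 1.01 ± 0.15 and 1.01 ± 0.25 (adjusted p = 0.000425 and 0.0217), while WRKY62, at 0.74 ± 0.31, did not pass (adjusted p = 0.161).

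**Figure D1:**
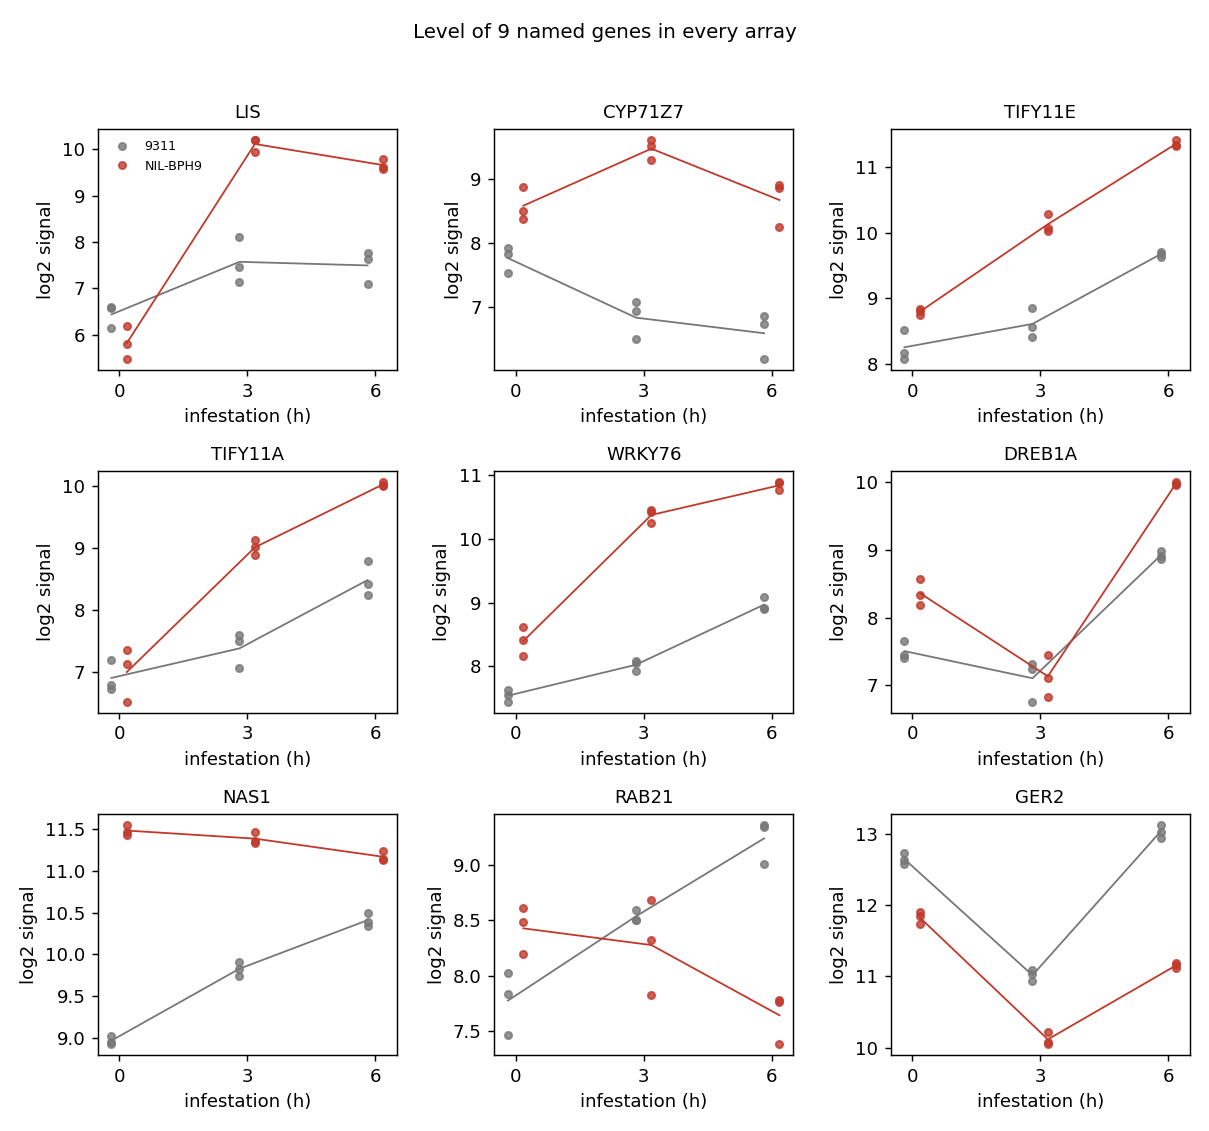
Log2 signal of LIS, CYP71Z7, TIFY11E, TIFY11A, WRKY76, DREB1A, NAS1, RAB21 and GER2 on every array, against hours of infestation, with 9311 in grey, NIL-BPH9 in red and lines through the means of 3 arrays. At 6 h the lines do not overlap in any panel, as for 39.0% of all tested genes. Non-overlap was a condition for genes chosen by the largest differences. NIL-BPH9 lies above 9311 at 6 h except for RAB21 and GER2.

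The DREB factors bind promoters of cold and drought genes. Of 7 measured, 4 were higher at 6 h, with a median of 0.83, where 7.82% of all tested genes were higher. DREB1A read 9.98, 9.998 and 9.96 against 8.90, 8.98 and 8.87, a difference of 1.06 ± 0.16 (adjusted p = 0.000153). DREB1G (0.88 ± 0.24), DREB1E (0.83 ± 0.14) and DREB1B (0.76 ± 0.17) were the other 3, and the DREB1G call ended in 3 of 14 alternative settings (adjusted p up to 0.0935). At 3 h limma called 0 of the 7 (1 at an unadjusted p under 0.05, with 9.86% of all genes called), and DREB1A then differed by 0.03. The difference between 3 h and 6 h was not tested. At 0 h 2 of the 7 were already higher, where 9.0% of all tested genes were higher. DREB1A then read 8.18, 8.34 and 8.57 in NIL-BPH9 and 7.65, 7.41 and 7.45 in 9311. The change from 0 h to 6 h was called as positive for 1 of the 7, where 5.72% of all tested genes were. Without the second NIL-BPH9 array of 6 h, 2 members were called at 6 h in place of 4. The ethylene list, with 5 of 15 higher and 0 lower, shares those 4 DREB genes, and its other called member was ACS2 (0.71 ± 0.22), an enzyme of ethylene synthesis.

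Genes of salicylate signalling and of direct defence held members that were higher by less than 1. Of 6 salicylate genes, 3 were higher, all homologs of the salicylate co-receptor gene NPR1: NH1 by 0.46 ± 0.10, NH3 by 0.41 ± 0.07 and NH2 by 0.24 ± 0.04. Of 9 chitinases, which cut chitin, 3 were higher and 0 lower, with a median of 0.23, where 7.82% of all tested genes were higher. Cht2 read 12.25, 12.38 and 12.27 against 11.71, 11.42 and 11.51, a difference of 0.75 ± 0.09 (adjusted p = 5.36e-06), and stood 0.81 higher at 0 h already. Cht6 was higher by 0.93 ± 0.21 and Cht11 by 0.49 ± 0.12. PBZ1, a pathogenesis-related protein of the PR10 family, read 14.51, 14.54 and 14.45 against 13.77, 13.68 and 13.68, a difference of 0.79 ± 0.06 that was close to the 0.64 of 0 h (change 0.16 ± 0.09, adjusted p = 0.311). Of 4 proteinase inhibitors, the cystatin OC-II was higher by 0.43 ± 0.07. Cht2 and PBZ1 thus stood apart before the insects came, while Cht6 gave 0.01 at 0 h.

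Kinases and calcium sensors were called at about the share of all tested genes, which was 15.6% in both directions together. Of 17 MAP kinase genes 2 were higher and 0 lower, MAPK5 by 0.70 ± 0.09 (adjusted p = 3.79e-05) and MEK1 by 0.19 ± 0.05 (adjusted p = 0.0228). Of 67 calcium sensors and calcium-regulated kinases 9 were higher and 2 lower, with a median of -0.01. CML31, a calmodulin-like protein, read 11.46, 11.47 and 11.46 against 10.02, 9.98 and 10.03, a difference of 1.45 ± 0.12 (adjusted p = 1.17e-07). CML15 was higher by 0.76 ± 0.18, CIPK18 lower (-0.65 ± 0.14) and the kinase CPK1 lower (-0.24 ± 0.07). The call ended for MEK1 in 5 of 14 alternative settings (adjusted p up to 0.281), for CPK1 in 6 (up to 0.133) and for CML15 in 2 (up to 0.0695). The calcium list had 17 called members when the 6 h arrays were fitted alone and 7 without the first 9311 array or without the third NIL-BPH9 array.

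Of 40 heat shock proteins and heat shock factors, 12 were higher and 1 lower, with a median of 0.16, against shares of 7.82% and 7.78% over all tested genes. HSF10, a heat shock factor, read 8.09, 7.77 and 8.02 against 7.19, 7.16 and 7.11, a difference of 0.81 ± 0.18 (adjusted p = 0.00464). HSP82 (0.36 ± 0.07), HSP24.1 (0.45 ± 0.10) and HSP26.2 (0.54 ± 0.12) were chaperones with differences larger than at 0 h (adjusted p = 0.00638, 0.0394 and 0.018). HSF5 was the lower member (-0.48 ± 0.13), and its call ended in 4 of 14 alternative settings (adjusted p up to 0.0852). Without 1 of 3 arrays (the second 9311 array or the first or the third NIL-BPH9 array) 8 members were called in place of 13, and with arrays centred on their medians 7.

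**Figure D2:**
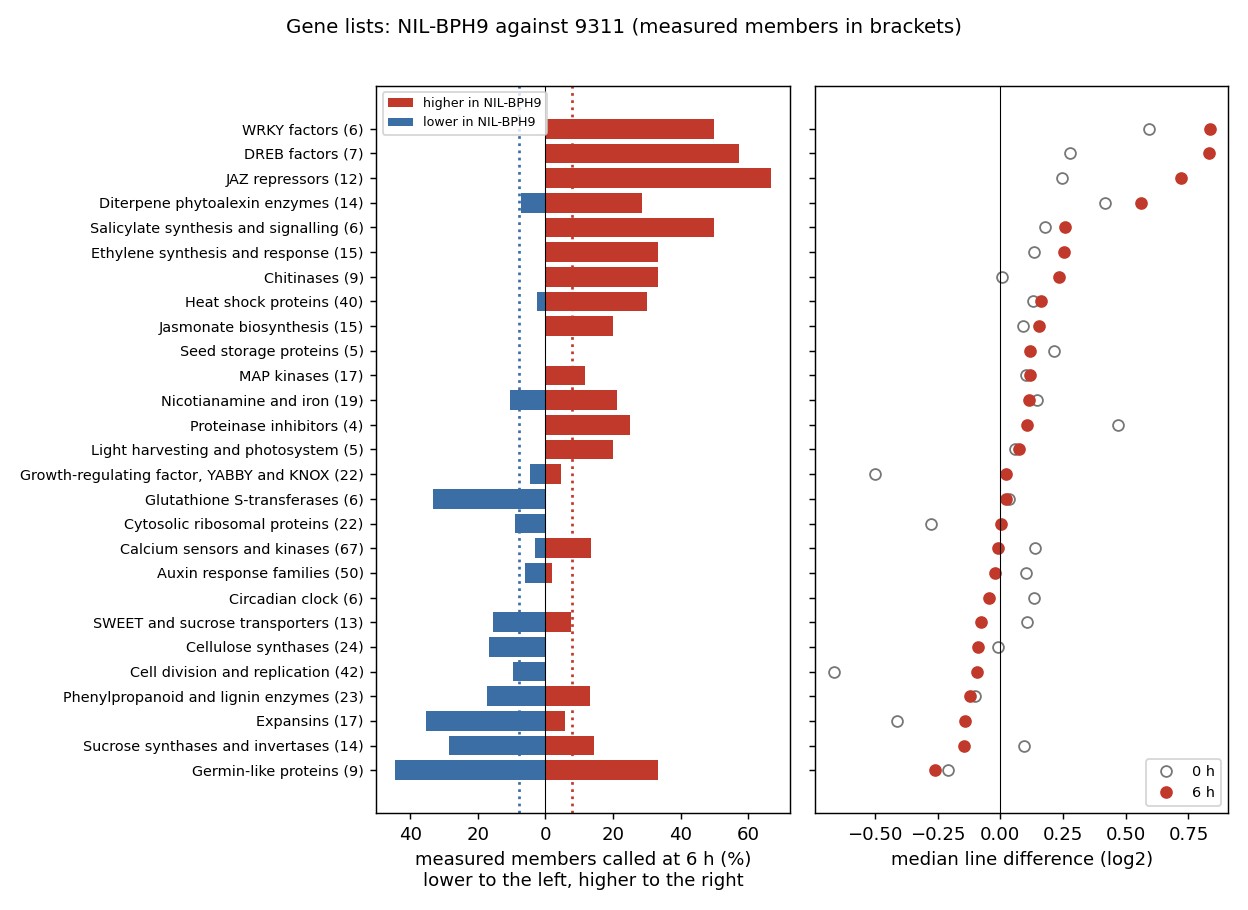
Left, percent of the measured members of each gene list called higher (red) or lower (blue) in NIL-BPH9 at 6 h, with the shares over all tested genes as dotted lines. Right, the list's median line difference on the log2 scale at 0 h (open) and 6 h (filled). The JAZ list has 8 of 12 members higher, and the lists of cell division and expansins lie below 0 at 0 h.

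Lignin and phenylpropanoid enzymes went both ways. Of 23 measured, 3 were higher and 4 lower, with a median of -0.12, against shares of 7.82% and 7.78% over all tested genes. 4CL1, a 4-coumarate CoA ligase at the entry to lignin and flavonoid synthesis, read 6.70, 6.82 and 6.37 in NIL-BPH9 and 7.81, 8.01 and 8.0 in 9311, a difference of -1.31 ± 0.19 (adjusted p = 0.000104). LAC4, a laccase, read 8.80, 8.78 and 8.79 against 9.89, 9.84 and 9.94, a difference of -1.10 ± 0.10 (adjusted p = 1.79e-07), where 0 h gave -0.16. CAD6, of the cinnamyl alcohol dehydrogenase family, read 8.63, 8.73 and 8.49 against 7.69, 7.62 and 7.60, a difference of 0.98 ± 0.23 (adjusted p = 0.0093). All 3 had 6 h differences unlike those of 0 h, by -0.98 ± 0.27, -0.94 ± 0.14 and 1.46 ± 0.33 (adjusted p = 0.0345, 0.000332 and 0.0119). The call of the change ended for 4CL1 in 12 of 20 alternative settings (adjusted p up to 0.0882). LAC7 was higher by 0.38 ± 0.11, with adjusted p from 0.0536 to 0.147 in the 8 alternative settings that ended its call.

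Germin-like proteins, secreted cupins of which some act in defence, also split. Of 9 measured, 3 were higher and 4 lower, against 7.82% and 7.78% of all tested genes, and 6 of the 9 lie on chromosome 8. GER2 read 11.11, 11.19 and 11.16 against 13.02, 13.13 and 12.95, a difference of -1.88 ± 0.07 (adjusted p = 3.44e-13), the lowest difference among named genes that were bright in both lines. GLP2, in the same run of neighbours, read 7.58, 7.59 and 7.68 against 4.92, 5.84 and 5.82, a difference of 2.09 ± 0.25 (adjusted p = 1.07e-05), and gave 2.13 at 0 h. GER1 was lower (-0.59 ± 0.10), while GER6 (0.45 ± 0.12) and, from chromosome 3, GER7 (0.54 ± 0.10) were higher. The GER2 difference widened from -0.82 at 0 h (change -1.06 ± 0.09, adjusted p = 1.3e-06), and in both lines its mean was lowest at 3 h. These close copies lie side by side, and cross-hybridisation among them was not tested.

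Many growth genes were lower in NIL-BPH9 at 0 h, and at 6 h, when 7.78% of all tested genes were lower, the counts were smaller. Of 42 cell division and replication genes, 28 were lower at 0 h with a median of -0.66, where 10.9% of all tested genes were lower and 9.0% higher, and 4 were lower at 6 h with a median of -0.09. The change was called as positive for 17 of the 42 (5.72% of all tested genes) and as negative for 0 (4.22% of all tested genes). CYCA2-1, a cyclin, was lower by -0.47 ± 0.10 at 6 h and RPA2A, a replication protein, by -0.33 ± 0.08. The number of division genes called at 6 h was 1 without the second NIL-BPH9 array or with arrays centred on their medians, and 2 without the first NIL-BPH9 array or the second 9311 array. The RPA2A call ended in 2 of 14 alternative settings (adjusted p up to 0.0621). Of 22 cytosolic ribosomal protein genes, 16 were lower at 0 h and 2 at 6 h, RPL27 (-0.58 ± 0.08) and RPL7A-1 (-0.54 ± 0.06). Of the 22 growth-regulating, YABBY and KNOX genes, OSH45 was higher (0.73 ± 0.07) and Oskn1 lower at 6 h. Oskn1 read 4.21, 2.42 and 3.29 against 6.72, 6.46 and 6.64, a difference of -3.30 ± 0.85 (adjusted p = 0.0149), with NIL-BPH9 under the array median, and the call ended in 2 of 14 alternative settings (adjusted p up to 0.0696).

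Of 17 expansins, which loosen growing walls, 1 was higher and 6 lower at 6 h, where 7.82% of all tested genes were higher and 7.78% lower. The counts were 0 and 12 at 0 h, where 9.0% of all tested genes were higher and 10.9% lower. At 3 h they were 2 and 0, where 5.63% of all genes were higher and 4.23% lower. EXPA1 read 8.08, 7.68 and 7.67 against 9.16, 8.66 and 8.94, a difference of -1.11 ± 0.16 (adjusted p = 7.73e-05), and EXPB6 was lower by -0.73 ± 0.06. EXPB2, the higher member, read 7.48, 8.003 and 7.97 against 5.94, 7.08 and 7.10, a difference of 1.11 ± 0.31 (adjusted p = 0.0261), in which the first 9311 array was lowest and without which the difference was 0.73 (adjusted p = 0.152). EXPB6 and EXPB2 are neighbours on chromosome 10 with opposite signs. Of 24 cellulose synthase genes 4 were lower and 0 higher, among them CESA6 (-0.32 ± 0.04) and CESA5 (-0.30 ± 0.07), whose call ended in 2 of 14 alternative settings (adjusted p up to 0.0519).

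Sucrose transport and metabolism genes went both ways, with 1 of 13 transporters higher and 2 lower. SWEET11, a sucrose exporter, read 11.25, 11.29 and 11.18 against 11.97, 11.99 and 12.05, a difference of -0.77 ± 0.07 (adjusted p = 3.33e-07). At 0 h SWEET11 differed by 0.16, so the change was -0.93 ± 0.10 (adjusted p = 1.39e-05). SWEET11 lies on chromosome 8, which the 0 h plants of NIL-BPH9 may not share with the later ones. SWEET15 read 4.74, 5.31 and 5.57 against 6.25, 6.66 and 6.11, a difference of -1.14 ± 0.29 (adjusted p = 0.0126), with NIL-BPH9 under the array median, and its call ended in 3 of 14 alternative settings (adjusted p up to 0.0738). The phloem-loading transporter SUT1 was higher by 0.37 ± 0.11 (adjusted p = 0.0409), and at 0.20 without the first 9311 array, and its call ended in 7 of 14 alternative settings (adjusted p up to 0.224). Of 14 genes of sucrose synthesis and cleavage, 2 were higher and 4 lower, against 7.82% and 7.78% of all tested genes. SPS4, a sucrose phosphate synthase, read 9.54, 9.58 and 9.57 against 10.25, 10.33 and 10.51, a difference of -0.80 ± 0.10 (adjusted p = 1.94e-05), where 0 h had given 0.27. SPS4 also lies on chromosome 8. The sucrose synthase SUS5 was lower (-0.41 ± 0.07), and the invertase CIN1 (0.36 ± 0.10) and the sucrose synthase OsSUS2 (0.19 ± 0.06) were higher. The call ended for OsSUS2 in 8 of 14 alternative settings (adjusted p up to 0.229), the replicate block among them, and for CIN1 in 6 (up to 0.095).

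Some genes of iron and nicotianamine metabolism had a line difference that was smaller at 6 h than at 0 h. Nicotianamine is the metal chelator from which rice builds its iron-binding phytosiderophores. Of 19 genes, 4 were higher and 2 lower at 6 h, against 7.82% and 7.78% of all tested genes. NAS1, a nicotianamine synthase, read 11.24, 11.14 and 11.14 against 10.39, 10.34 and 10.50, a difference of 0.76 ± 0.07 (adjusted p = 1.57e-07). At 0 h that difference was 2.52 and at 3 h 1.56, and the change from 0 h to 6 h was -1.76 ± 0.09 (adjusted p = 1.81e-09). The NIL-BPH9 means were 11.49, 11.39 and 11.17 at 0, 3 and 6 h and those of 9311 were 8.96, 9.83 and 10.41, so the gap narrowed mainly from the side of 9311. NAS2 (0.51 ± 0.10) and NAAT1 (0.82 ± 0.06), the aminotransferase of the next step, were also higher at 6 h with larger differences at 0 h (1.23 and 1.46). VIT2, a vacuolar iron transporter, read 10.58, 11.40 and 10.81 against 9.57, 9.75 and 9.57, a difference of 1.30 ± 0.17 (adjusted p = 3.48e-05), against 0.11 at 0 h. NAS3 (-0.75 ± 0.08) and the regulator IRO3 (-0.65 ± 0.18) were lower, and the IRO3 call ended in 3 of 14 alternative settings (adjusted p up to 0.1).

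Further named genes belonged to hormone, stress and trafficking functions. RAB21, a dehydrin induced by abscisic acid and drying, read 7.76, 7.38 and 7.78 in NIL-BPH9 and 9.01, 9.37 and 9.35 in 9311, a difference of -1.60 ± 0.19 (adjusted p = 9.9e-06). It had been higher in NIL-BPH9 at 0 h (0.65, adjusted p = 0.0264), and the reversal of -2.25 ± 0.27 was called (adjusted p = 5.44e-05). CKX4, a cytokinin-degrading oxidase, read 7.78, 7.67 and 7.05 against 5.96, 5.95 and 5.91, a difference of 1.57 ± 0.26 (adjusted p = 0.000416). OsPIN5a, of the PIN auxin transporter family, was lower by -0.99 ± 0.19, and GH3.2, which conjugates auxin, was higher by 0.75 ± 0.09. Of 50 genes of auxin response families GH3.2 was the 1 higher, and 3 were lower. Both counts were under the shares of 7.82% and 7.78% over all tested genes. ARF16 (-0.47 ± 0.10) and ARF17 (-0.27 ± 0.07) were among the lower ones. The ARF17 call ended in 3 of 14 alternative settings (adjusted p up to 0.0574). HIRL2 (-0.87 ± 0.12) and MS (-0.92 ± 0.17) were lower. TRS130, named for a subunit of a vesicle-tethering complex, read 10.88, 10.85 and 10.86 against 9.19, 8.72 and 8.79, a difference of 1.97 ± 0.12 (adjusted p = 1.71e-09), and its difference was 2.17 at 0 h and 1.83 at 3 h.

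Of 6 glutathione S-transferases 2 were lower, GST-I (-0.68 ± 0.10) and GSTZ5 (-0.31 ± 0.07), where 7.78% of all tested genes were lower. Of 2 class III peroxidases, PRX112 was higher (0.43 ± 0.11) and PRX74 lower (-0.56 ± 0.07). The call ended for GSTZ5 in 3 of 14 alternative settings (adjusted p up to 0.0642) and for PRX112 in 2 (up to 0.0681). Of 5 photosystem and Rubisco genes 1 was called, the LHCP gene on chromosome 3, which was higher by 0.61 ± 0.09 (adjusted p = 5.67e-05). Of 6 circadian clock genes 0 were called at 6 h and 3 were higher at 0 h, where 9.0% of all tested genes were higher. At an unadjusted limma p under 0.05, 0 of the 6 passed at 6 h.

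Set against the other times, part of the 6 h difference stood before the insects arrived. Of the 2505 genes called at 6 h, 893 were called in the same direction at 0 h, which is 35.6% of the 6 h calls and 27.9% of the 3202 genes called at 0 h (19.9% of all tested). At 3 h 634 were called in the same direction, 25.3% of the 6 h calls and 40.1% of the 1583 calls of that time. The line differences of the 3 times share no array. In all, 325 genes were called in one direction at all 3 times. A test of the 6 h against the 0 h difference called 1596 of 16053 genes (9.94%), 919 more positive at 6 h and 677 more negative. Of the 2505 genes called at 6 h, 676 were among them, and in 615 of these the 6 h difference lay further toward its own sign. These genes were chosen by their 6 h difference, which is a term of the change. That choice favours such a split, so no conclusion is drawn from it. For 1829 of the 2505 genes the change since 0 h did not pass, which does not show that it was absent. With probe sets in place of genes, the test against 0 h called 2325 of 33094 (7.03%), and without the first 9311 array of 0 h it called 4052.

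**Figure D3:**
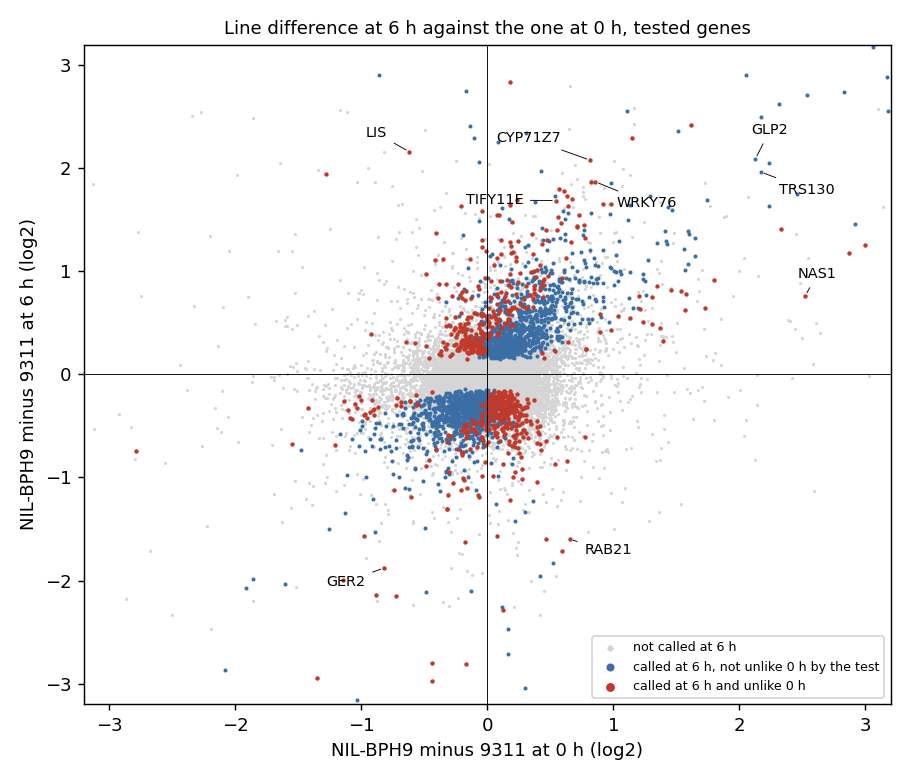
Line difference at 6 h (vertical axis, log2) against the line difference at 0 h (horizontal axis, log2) for each tested gene. Grey genes were not called at 6 h, blue genes were called at 6 h but not in the test against 0 h, and red genes were called in both. LIS lies left of 0 with a large 6 h difference, TRS130 and GLP2 lie near the diagonal, NAS1 lies far to the right, and 35 genes lie outside the frame.

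The most extreme values were of a kind in which 1 line gave almost no signal. At 6 h, 75 called probe sets differed by at least 4 log2 units, 49 higher and 26 lower in NIL-BPH9, and in 70 of them the lower line lay under the array median. Of the 75, 43 differed by at least 4 in the same direction at 0 h and 58 at 3 h. A probe set that is unnamed here read 13.56, 13.45 and 13.25 in NIL-BPH9 and 0.70, 0.97 and 0.26 in 9311 at 6 h. It was chosen, like the loci in the next paragraph, after its values were seen, and its difference of 12.78 was the most positive of all at 6 h. Whether the probes of these sets match both genomes was not tested.

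A second kind appeared after 0 h. Of the 75 probe sets, 17 had differed by less than 1 in the same direction at 0 h, and 15 of these 17 were lower in NIL-BPH9 at 6 h. By 3 h, 14 of the 17 had reached a difference of at least 4. Of the 7 with a gene, 6 lay on chromosome 8. LOC4344881 was 7.77, 7.72 and 7.88 in NIL-BPH9 at 0 h and 0.84, 0 and 0 at 6 h, with 8.02, 8.50 and 8.08 in 9311 at 6 h. LOC4335583 on chromosome 4 went the other way, at 0 on all 3 NIL-BPH9 arrays of 0 h and at 7.90, 7.76 and 8.55 at 6 h, with 9311 at 0.37, 0 and 0. LOC4350429 on chromosome 11 was of the constant kind, at 0.87, 3.17 and 0.92 in NIL-BPH9 and 9.52, 9.28 and 9.47 in 9311 at 6 h.

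**Figure D4:**
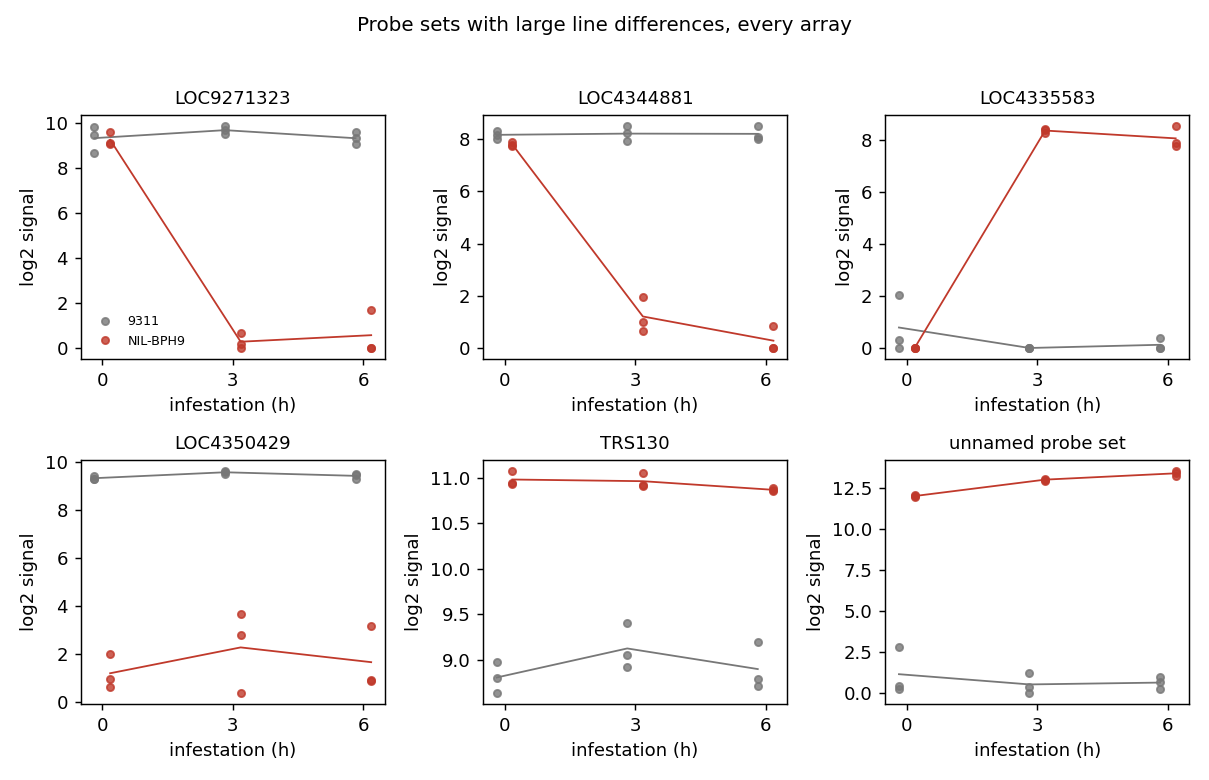
Log2 signal of 6 probe sets with large line differences on every array, against hours of infestation, with 9311 in grey and NIL-BPH9 in red. LOC9271323 and LOC4344881 are at 9311 levels in NIL-BPH9 at 0 h and near 0 later, LOC4335583 does the reverse, and LOC4350429, TRS130 and the unnamed probe set differ at all 3 times.

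Called genes lay together in places. The gene order was that of the RefSeq gene table (assembly ASM3414082v1), since the build behind the array is not given in the sources used here. Chromosome 8 had 232 of 1064 tested genes called at 6 h (21.8%), against 15.6% over all chromosomes, and 51 of them at least 2-fold (4.79% against 1.57%). Chromosome 12 had 135 of 799 called (16.9%) and 27 at least 2-fold (3.38%). Other chromosomes ranged from 12.2% to 16.1% called. Runs of 20 neighbouring tested genes with at least 10 called, joined where they overlap, numbered 10: 5 on chromosome 8, 3 on chromosome 12 and 1 each on chromosomes 4 and 11.

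The longest chromosome 8 runs were LOC4344809 to LOC4344931, with 37 of 69 genes called, and LOC4345024 to LOC4345192, with 39 of 78. GER1, GER2 and GLP2 lie in the first and 4CL1 and OSH45 in the second. In the first run the called genes had a median size of 1.05 at 6 h, 0.90 at 3 h and 0.37 at 0 h in the same direction, and 20 of the 37 were called in the test against 0 h. The chromosome 12 run from LOC4352471 to LOC4352541 had 22 of 42 genes called, PBZ1 and TRS130 among them, with a median size of 0.85 at 6 h and 0.51 at 0 h, and 7 of the 22 were called against 0 h. The run on chromosome 11 from LOC9267032 to LOC4350476, which holds RAB21, had 19 of 39 called and 14 of the 19 in the same direction at 0 h. The JAZ, WRKY, DREB and diterpene genes called at 6 h lie on other chromosomes than 8, 11 and 12. The momilactone cluster of CYP99A2 and CYP99A3 lies on chromosome 4, however. That chromosome also holds LOC4335583 and the run from LOC4335726 to LOC4335760, with 11 of 22 genes called. Whether linked donor segments bear on any of these genes was not tested. Without chromosomes 8, 11 and 12, 2036 of 13490 genes were called at 6 h (15.1%).

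**Figure D5:**
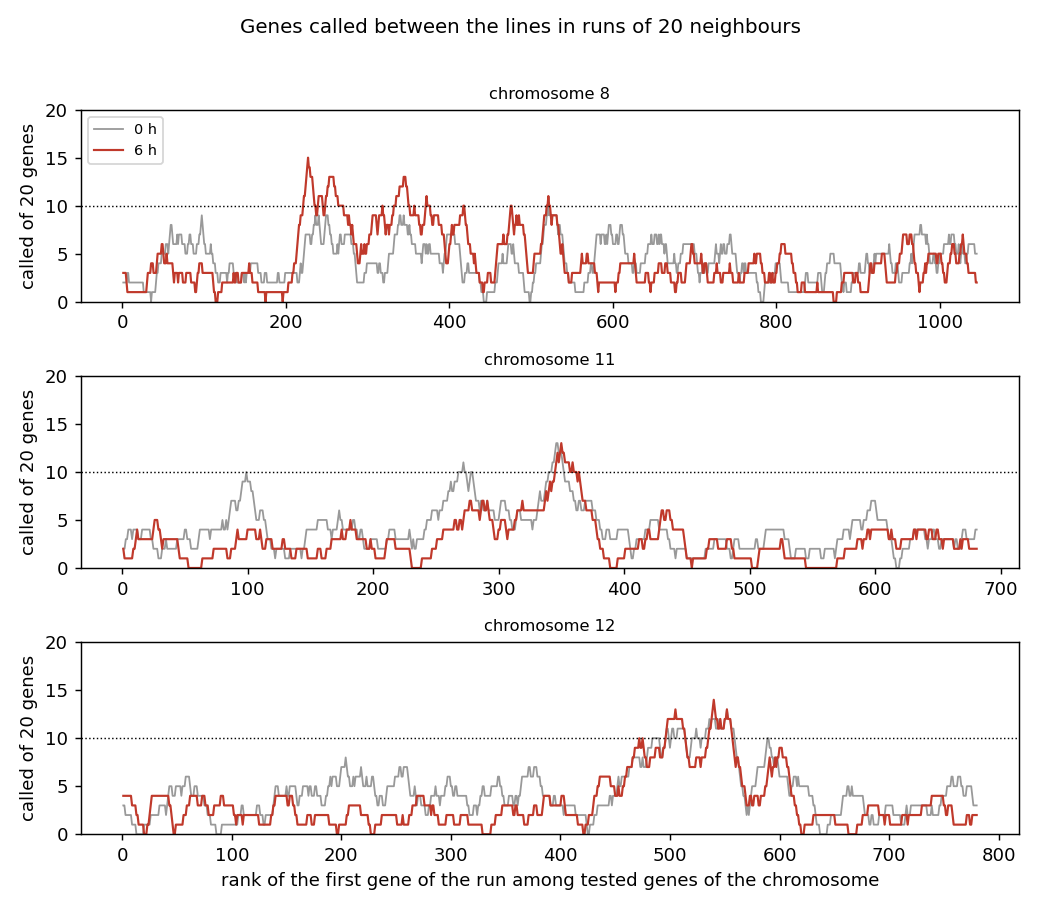
Number of genes called between the lines among 20 neighbouring tested genes, for runs starting at each gene along chromosomes 8, 11 and 12, at 6 h (red) and 0 h (grey). The dotted line marks 10 of 20. The highest runs reach 15 on chromosome 8, 13 on chromosome 11 and 14 on chromosome 12 at 6 h, against 10, 13 and 13 at 0 h.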

How the data were processed

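Rice leaf sheath RNA was labelled with biotin and hybridised to 1 Affymetrix array per sample. The deposited table holds 1 log2 value per probe set and array, made by the authors with MAS5 per the submitters' processing notes, and its version is not given in the sources used here. On a linear scale the trimmed mean per array came to about 500.1. No detection calls were used, and the number of arrays limits the precision.

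Samples were grouped by title. Of 57381 probe sets, 187 controls were left out. The platform annotation was joined by gene identifier to the RefSeq gene table (ASM3414082v1), giving 17905 genes; 22436 probe sets had 1 gene, 95 several and 34663 were unnamed here. limma 3.58.1 in R 4.3.3 fitted 6 group means over 18 arrays (12 residual degrees of freedom, intensity trend, Benjamini-Hochberg adjustment over 33094 probe sets), and its adjusted p-values are those printed. In a simulation of the 6 h comparison on 33094 probe sets, 80 of 100 4-fold and 53 of 100 2-fold changes were recovered, with 7 false among 140 calls. It drew independent normal noise around a mean common to all groups and changed 200 probe sets, where the data called 3736. Its rates therefore need not hold for the data. Named genes were the 10 with the largest differences in each direction (named, called, lines not overlapping, the higher mean at least 1 log2 unit above the array median), 2 per direction of each gene list, and 6 per direction of the change since 0 h. For those 6 per direction the conditions of the first group held, and the change itself had to be called. Remaining called members of the JAZ, WRKY, DREB, diterpene, jasmonate, salicylate, chitinase, nicotianamine and germin lists, some heat shock members, members named as not called, and all locus numbers were chosen after their values were seen. A part of the rule for described but unnamed loci could not be applied, since the gene table holds no descriptions, and BPH9 had no matching probe set here. Lists for callose synthases, NLR proteins, lectin receptor kinases, wall-associated kinases and beta-1,3-glucanases had 0 measured members. Members and lists were chosen with earlier results of these data known. Same-numbered replicates of the lines at 6 h did not deviate together (correlations -0.01, 0.01 and -0.03), so the numbers do not pair the samples. Alternatives were quantile normalization, centring on array medians, 2 other filters, a floor at 5, the contrast's arrays alone, a replicate block, no intensity trend, each array left out, and the median probe set per gene.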

Additional observations from a re-analysis of the deposited data

Results flagged for a closer look

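Of the 28 genes named for a large line difference at 6 h or for a large change of it since 0 h, 20 had a 6 h difference that departed from the 0 h difference in the limma test of that change (adjusted p under 0.05). These 20 are flagged for that reason and no explanation was tested. For the 6 per direction named for the change, a call in that same test was a condition of choice. The others were chosen by the 6 h difference, which is a term of the change. The count of 20 is therefore no finding about these genes. Over all tested genes 9.94% were called in that test. The change is the 6 h line difference minus the 0 h line difference on the log2 scale, with 3 arrays in each of the 4 groups, and the NIL-BPH9 arrays of 0 h stood apart from the later ones.

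Among terpenoid genes the change was 2.78 for LIS, 1.28 for DXPS, 1.26 for CYP71Z7, 1.23 for CPS2 and 1.03 for CYP99A2. Among JAZ repressors it was 1.45 for TIFY11A, 1.35 for TIFY11C and 1.14 for TIFY11E. The other positive changes were 1.52 for EXPB2, 1.46 for CAD6 and 1.01 for WRKY76. The most negative change was -2.25 for RAB21, whose line difference turned from 0.65 to -1.60. NAS1 changed by -1.76 and IRO3 by -1.11. SPS4 (-1.06), GER2 (-1.06) and 4CL1 (-0.98) lie on chromosome 8. OsPIN5a changed by -1.03, HIRL2 by -0.99 and LAC4 by -0.94. The call of the change ended in part of the alternative settings for 5 of these genes: for CPS2 in 13 of 20 alternative settings (adjusted p up to 0.119), for CYP99A2 in 11 (up to 0.0926), for EXPB2 in 12 (up to 0.107), for 4CL1 in 12 (up to 0.0882) and for OsPIN5a in 10 (up to 0.0912).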

How the results depend on the processing

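The 6 h comparison called 3736 probe sets (7918 at an unadjusted p under 0.05), from 3103 to 4297 in the other settings except centring on array medians (2265), and 2546 to 3133 with each array left out. The test against 0 h called 2325, and 813 with centred arrays, of which 69.9% were positive against 54.5% in the fit as reported, 1221 with only its own arrays, 1309 without the intensity trend, and 1424 to 4052 with each array left out (the highest without 9311 replicate 1 of 0 h, the lowest without 9311 replicate 2 of 6 h). The numbers do not pair the samples, and a replicate block gave 3440 and 1979 calls. Centring shifted the median of all 6 h differences to -0.05 from -0.03. Of 75 named genes, none changed direction at 6 h in 1050 values and 21 lost the call in at least 1 setting; of 35 whose change since 0 h was called, 14 did. Without chromosome 8, added after the data were seen, the genes called were 2273 and 1456, and without chromosomes 8, 11 and 12 they were 2036 and 1334. The germin median was -0.38 in place of -0.26 with the median probe set of a gene. The causes were not tested. Signals under the array median hold the least information.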
